A study of Homo sapiens with 4 samples.

Results

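FAN1, NFAT5 and POGZ are human genes whose transcript versions were called in opposed directions after knockdown of HRP2. They were taken by symbol from the authors' deposited transcript table, where they hold 7 of 1040 called transcripts and are 3 of 878 gene symbols. The members were chosen by the deposited log2 fold changes of their versions, at least 1 higher and at least 1 lower, so their directions and sizes are described here and carry no test. LP-1 is an established multiple myeloma line, labelled as B lymphoblast. RNA from cells transduced with lentivirus carrying a guide RNA against HRP2 (2 libraries) was compared with RNA from cells given a non-target construct (2 libraries), and all 4 libraries came from this 1 line. The labels do not say whether the guide edited or repressed its target, or whether the cells were a clone or a pool, and they do not state that replicates were separate cultures, so the Q values may reflect technical spread. Every value is the authors' own log2 fold change of knockdown over control, with a Q value. No value per library was used, which leaves replicate spread and depth unknown, and no value carries an SD.

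HRP2 is a chromatin reader encoded by HDGFL2 and a paralogue of LEDGF, the product of PSIP1. FAN1 encodes a structure-specific nuclease that processes DNA interstrand crosslinks. NFAT5, also called TonEBP, encodes a transcription factor that drives the genes for osmolyte transport and synthesis when cells face hypertonic medium. POGZ encodes a zinc finger protein that binds HP1 and is a known partner of the integrase-binding domain of LEDGF, a domain that HRP2 also has. A gene gives several transcript versions through alternative starts, exons and ends. RefSeq gives curated versions the prefix NM and computer-predicted versions the prefix XM.

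The coding sequences of the called NFAT5 versions differ at the 5′ end. The version that was higher, NM_138713.3, joins its exon 3 directly to the exon that holds the start codon used by the lower version, NM_138714.3. NM_138714.3 carries 1 more internal exon there, its exon 4, of 62 bases at chr16:69646517-69646578 (GRCh38, GENCODE 29). Exon coordinates are those of the GENCODE models linked to these accession versions, and the deposited tables hold none. The first stretch shown is the coding sequence of NM_138713.3 that is not coding in NM_138714.3, followed by the start codon annotated for NM_138714.3. The stretch runs from chr16:69566302 to chr16:69647059 with the introns removed. Its capitals mark the start codon of NM_138713.3 and, at the end, the start codon annotated for NM_138714.3. The 282 bases before the second start codon come from 4 exons and give 73, 54, 126 and 29 bases in that order.
NM_138713.3: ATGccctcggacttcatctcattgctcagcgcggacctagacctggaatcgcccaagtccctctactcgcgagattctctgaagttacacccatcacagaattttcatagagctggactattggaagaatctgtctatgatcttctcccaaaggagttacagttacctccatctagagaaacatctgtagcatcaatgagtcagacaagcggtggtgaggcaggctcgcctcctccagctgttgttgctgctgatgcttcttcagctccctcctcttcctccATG

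NM_138713.3 has 1549 codons before its stop in this annotation, and NM_138714.3 has 1455, a difference of 94 at the N-terminus. The linked models also end at different places: that of NM_138713.3 has 1131 bases after the stop codon (5875 bases in all), and that of NM_138714.3 has 8314 (13362 in all). The upstream start codon is present in NM_138714.3 too. Read from there, the frame runs for 99 codons and meets a stop inside the 62-base exon, whose length is not a multiple of 3. Both called versions hold the 54-base exon at chr16:69568495-69568548, which adds 18 codons to NM_138713.3 and is untranslated in NM_138714.3. NM_006599.3, the version with neither the 54-base nor the 62-base exon, has 1531 codons and had no row in the authors' deposited transcript table.

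Each called NFAT5 version has a close relative without a row. NM_001113178.2 differs from NM_138713.3 by 3 coding bases at chr16:69684887-69684889, where the acceptor of an exon lies 1 codon further downstream. The pair is shown across that junction, with 30 bases on each side, and the capitals mark the bases that NM_001113178.2 lacks.
NM_138713.3: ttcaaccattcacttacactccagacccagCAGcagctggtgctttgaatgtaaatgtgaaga
NM_001113178.2: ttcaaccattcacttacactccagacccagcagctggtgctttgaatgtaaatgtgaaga

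NM_173214.2 and NM_173215.2 have the 62-base exon and the same 1455 codons as NM_138714.3, but lack the 54-base exon. Neither had a row in the authors' deposited transcript table. Of the 6 NFAT5 versions linked to a GENCODE model, 2 were called.

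The POGZ version that was higher, NM_145796.3, skips 2 coding exons of NM_015100.3. They are exon 4 (176 bases, chr1:151430666-151430841) and exon 5 (109 bases, chr1:151429603-151429711), on the minus strand. They add up to 285 bases, a multiple of 3, so the frame is kept and 1410 codons become 1315. The skipped stretch begins within codon 95 and ends within codon 190 of NM_015100.3. It is shown with exon 4 in lower case and exon 5 in capitals, followed by the sequence of NM_145796.3 at the new joint, where the last 30 bases before the skip are in lower case and the first 30 after it in capitals.
NM_015100.3: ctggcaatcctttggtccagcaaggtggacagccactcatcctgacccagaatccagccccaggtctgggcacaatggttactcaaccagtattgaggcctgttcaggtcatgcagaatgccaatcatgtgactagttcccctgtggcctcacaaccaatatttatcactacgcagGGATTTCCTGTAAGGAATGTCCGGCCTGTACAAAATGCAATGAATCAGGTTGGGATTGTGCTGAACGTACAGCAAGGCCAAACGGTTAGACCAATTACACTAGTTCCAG
NM_145796.3: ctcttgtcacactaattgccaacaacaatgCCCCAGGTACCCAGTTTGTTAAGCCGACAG

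Among the 5 POGZ versions linked to a GENCODE model, NM_145796.3 alone was called. The other 4, with 1348 to 1410 codons, contain both exons. The lower POGZ version, XM_005245001.2, is a predicted version whose structure was not analysed here, so it cannot be said whether it holds the 2 exons.

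**Figure D1:**
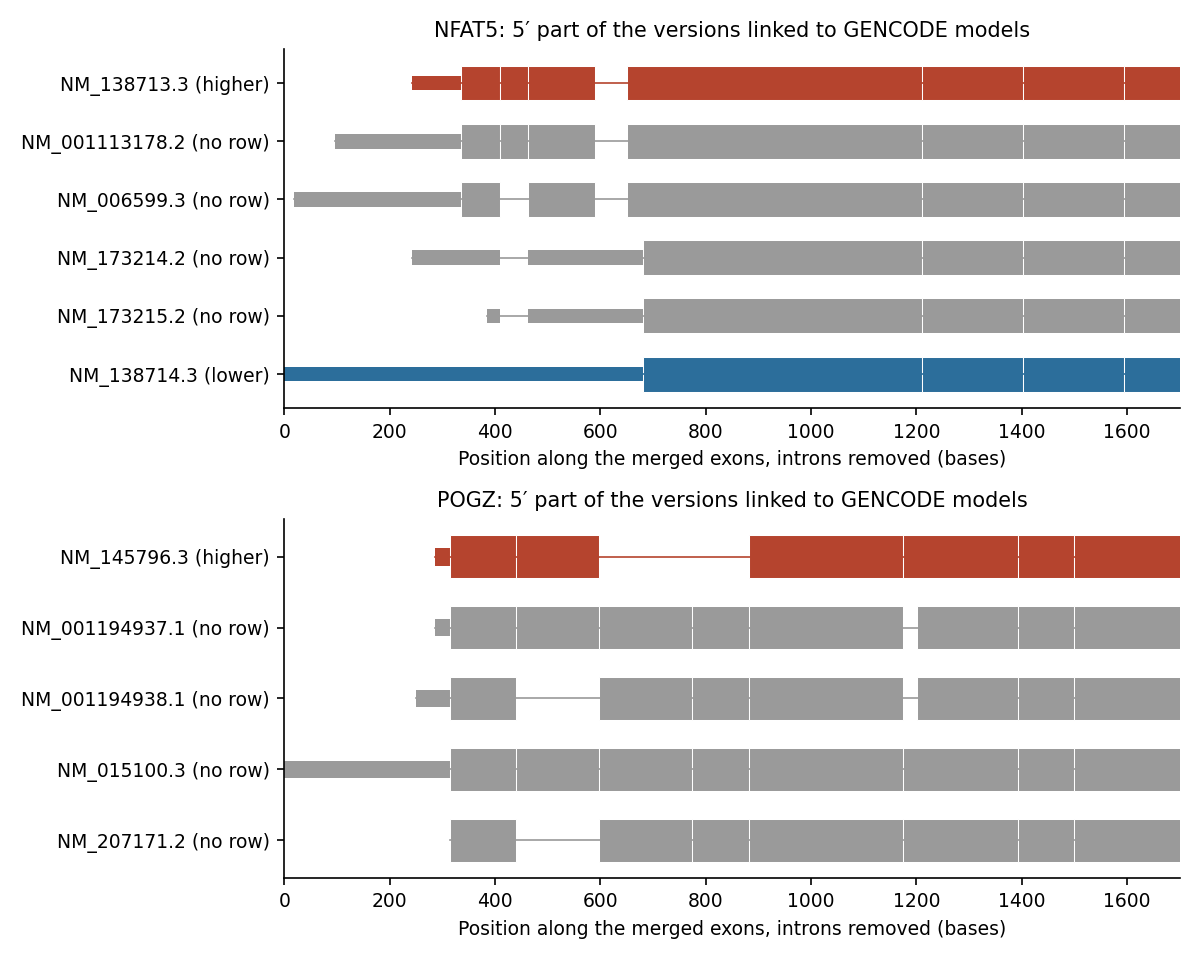
Annotated 5′ part of the NFAT5 versions (top) and POGZ versions (bottom), drawn to scale over the first 1700 bases of the merged exons with introns removed. Thick bars are coding, thin bars untranslated, white lines mark exon borders, thin lines join exons across bases a version lacks, red is the version with a higher row, blue the version with a lower row and grey a version without one. NM_138713.3 lacks the 62-base exon and NM_145796.3 lacks the 285 bases of 2 exons.

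NFAT5 had the most even pair of the members. In the authors' deposited transcript table NM_138713.3 had a log2 fold change of 23.21 (Q = 1.14e-07), and NM_138714.3 had -23.32 (Q = 3.69e-07). The rise and the fall differed in size by 0.12. The first is rank 21 of the 530 higher transcripts by size and the second rank 7 of the 510 lower ones. Read as a ratio, 23.21 is 9680000, and the levels behind it are not known because no value per group or library was used. Whether both groups had reads of the version is thus unknown, and the ratio is not taken as a measured amount.

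FAN1 had 3 called versions in the authors' deposited transcript table, all of them predicted. XM_005254235.3 was higher, at 23.34 on the log2 scale (Q = 6.52e-08). XM_005254232.4 was lower, at -23.73 (Q = 7.3e-08), the rank 3 of the 510 lower transcripts in the authors' deposited table. XM_017022013.1 was lower too, at -9.23 (Q = 0.00287), and stood at rank 191 of the lower transcripts there. The largest rise and the largest fall of FAN1 thus differed by 0.39, while its second fall was much smaller on the log2 scale.

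None of the 4 curated FAN1 versions linked to a GENCODE model had a row. These give 2 proteins. NM_014967.4 (chr15:30903873-30943108, GRCh38) has 15 exons and 1017 codons. NM_001146094.1, NM_001146095.1 and NM_001146096.1 share its first 525 codons, then read on past the end of an exon that NM_014967.4 splices and stop after 533 codons. The nuclease domain lies in the C-terminal part that the short protein lacks. Structures of the 3 called predicted versions were not analysed here, so it cannot be said which protein each would give.

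The largest rise and the largest fall of POGZ were smaller than those of FAN1 and NFAT5. The authors' deposited transcript table gave NM_145796.3 a log2 fold change of 11.64 (Q = 1.74e-09) and XM_005245001.2 one of -11.12 (Q = 2.66e-08). These Q values rank 4 and 11 of 1040, ahead of those of every FAN1 and NFAT5 version. The rise and the fall differed by 0.52. Taken as ratios of the larger to the smaller group, they are 3190 and 2230, and the levels behind these ratios are not known either.

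**Figure D2:**
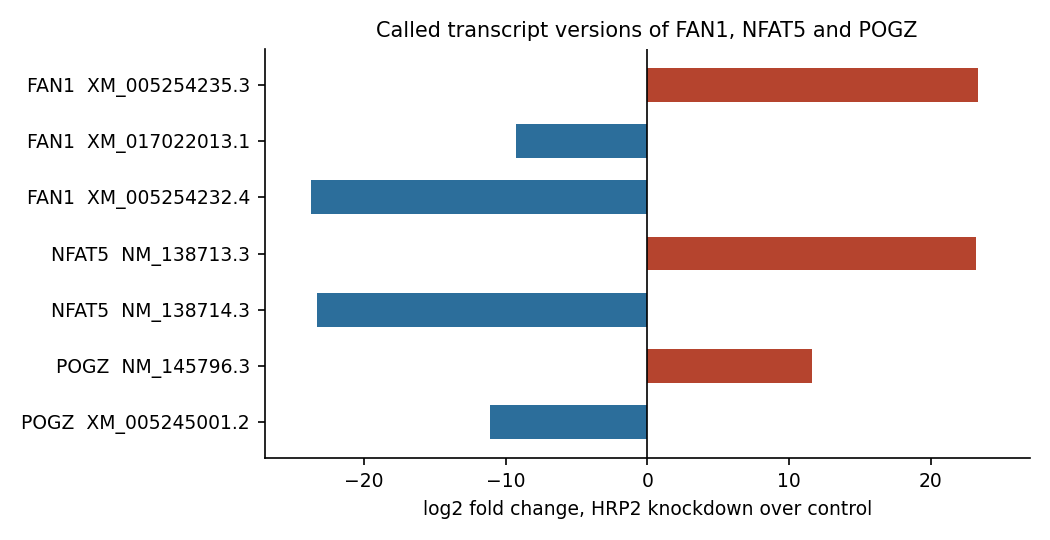
Log2 fold change of knockdown over control (horizontal axis) for each of the 7 called versions, from the authors' deposited transcript table. Bars start at 0, red is higher and blue lower, with no error because values per library were not used. FAN1 and NFAT5 each reach beyond 23 in both directions, and POGZ beyond 11.

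At the level of genes none of the 3 had a row. FAN1 (gene ID 22909), NFAT5 (10725) and POGZ (23126) are all listed as mRNA genes, and of 24237 such identifiers 2.81% have a row in the authors' deposited gene table. That table ends at a Q value of 0.0495, so the size of the difference of each whole gene is not known, and a missing row does not show that the gene's total was unchanged.

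The members' versions were 3 higher and 4 lower, in a transcript table with 51.0% higher and 49.0% lower. Since the rule asked for both directions, nothing is read from that count. A change of at least 20 in absolute log2 value was found for 4 of the 7, against 7.40% of all 1040 transcripts, and all 7 reached 6, as did 79.1% of all. The transcript table has a gap in that range, between 12.14 and 21.55. POGZ lies just under the gap, the third FAN1 version far below it and the other 4 above it. Rises of at least 20 numbered 60 (5.77% of all rows) and falls of that size 17 (1.63%), and FAN1 and NFAT5 have 1 version in each set.

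**Figure D3:**
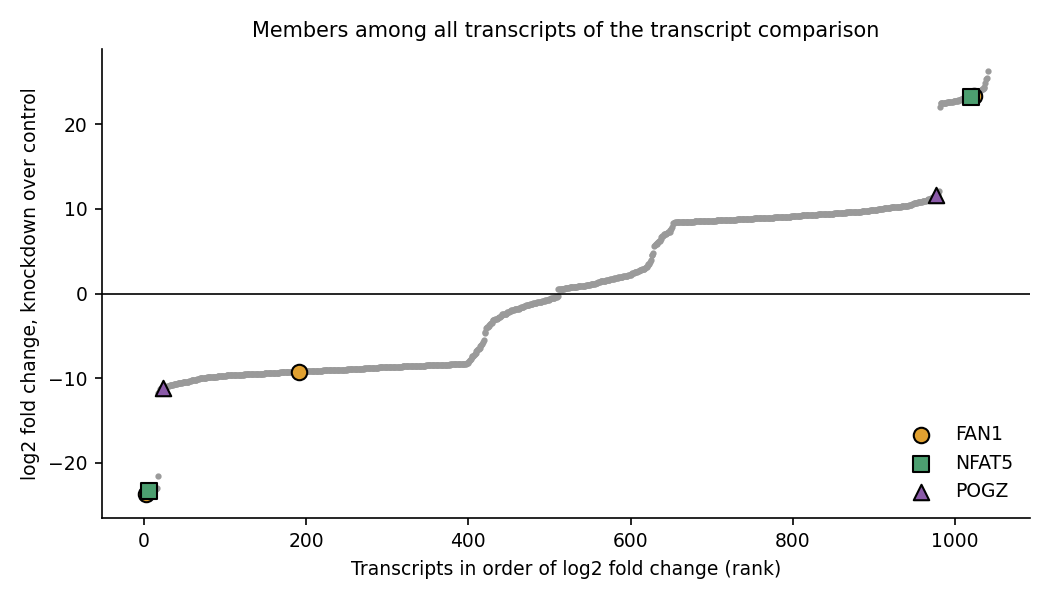
All 1040 transcripts of the authors' deposited transcript table in order of log2 fold change (horizontal axis, rank; vertical axis, log2 fold change), with FAN1 as circles, NFAT5 as squares and POGZ as triangles. No transcript lies between 12.14 and 21.55 in absolute value, and FAN1 and NFAT5 have a version on the outer side of that gap at each end.

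Opposed versions were frequent among genes with several called transcripts. Of 878 symbols 88 (10.0%) had both a higher and a lower version, and of the 135 symbols with at least 2 called versions 65.2% did. A rise and a fall of at least 20 each was found for 3 symbols (0.342%), FAN1 and NFAT5 among them. POGZ was rank 5 of the 88 by the smaller of its rise and fall. Over all 88 genes the rise and the fall differed in size by a median of 1.29 (0.00262 to 21.0), and by less than 1 in 39 genes (44.3%), the 3 members included. A row in the authors' deposited gene table was present for 12.5% of the 88 and for 13.4% of the 790 other symbols.

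**Figure D4:**
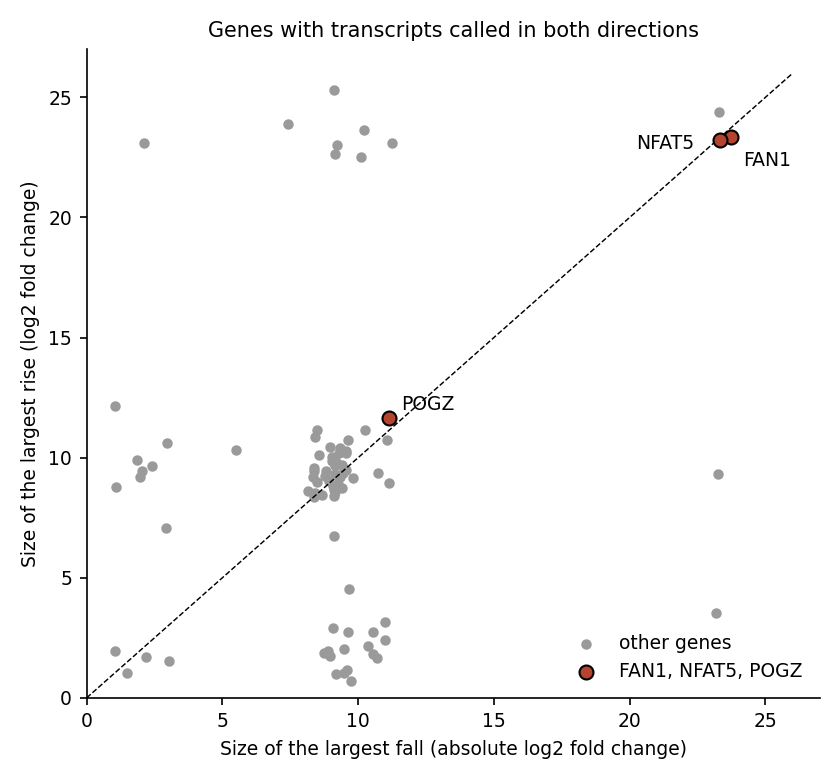
Size of the largest fall (horizontal axis) and of the largest rise (vertical axis), in absolute log2 fold change, for the 88 genes with versions called in both directions. Red points are FAN1, NFAT5 and POGZ, grey points the other genes, and the dashed line marks equal sizes. FAN1 and NFAT5 lie in the upper right corner, and POGZ lies at the upper end of the group around 9.

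The genes of most similar pattern were ranked by the number of called versions and then by the smaller of their largest rise and fall. MBNL1, a splicing regulator, had 4 called versions, from -9.03 to 10.02 in the authors' deposited transcript table. RBCK1, a subunit of the linear ubiquitin ligase complex, and IGF2BP2, an RNA-binding protein gene, also had 4 each. Unlike the 3 members, these 2 genes had rows in the authors' deposited gene table, at -0.52 and 0.64. CDK5RAP2, a centrosome gene, had 1 version at 2.40 and 3 versions down to -10.99 in the authors' deposited transcript table. SNX19 had 1 version at 10.74 and 2 at -11.05 and -10.59, and BCOR, a corepressor gene, 1 at 22.51 and 2 at -10.10 and -9.90 in the same deposited table. The likeness is one of directions in 1 comparison and not over samples.

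The called curated versions share nearly all of their sequence with other versions of the same gene. Over the genomic span that both cover, 99.5% of the 31-base words of NM_138713.3 also occur in NM_138714.3, and 98.5% of the words of NM_138714.3 occur in NM_138713.3. This leaves 29 words found in the higher version alone and 91 in the lower version alone within that span, which leaves out the longer 3′ end of the NM_138714.3 model. Against the 5 other linked NFAT5 models together, NM_138713.3 had 0 of 5845 words of its own and NM_138714.3 had 18 of 13332. NM_145796.3 had 28 of 6024 words of its own against the 4 other linked POGZ models, those that span the new joint. The GENCODE models can end at other places than the RefSeq versions do, and predicted versions are not in this count. The submitters' processing notes name RSEM, which estimates how reads common to several versions divide among them. Its part in the opposed values was not tested.

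NFAT5 was one of 13 genes with a higher and a lower curated version, each linked to a GENCODE model of its own. For these 13 pairs the share of the smaller version's words found in the other ranged from 85.4% to 99.5%, with a median of 96.0%, and the NFAT5 pair was the highest. Of the 7 member transcripts 4 were predicted versions (XM), as were 519 (49.9%) of all 1040. Predicted versions change between RefSeq releases. The RefSeq table for GRCh38.p14 lists XM_017022013 under a later version number and does not list XM_005254235, XM_005254232 or XM_005245001, while all 3 curated versions are listed there under later version numbers.

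Genes around NFAT5 were mostly without a row, and those with one were higher. Of 18 NFAT family and osmotic response genes, 4 (22.2%) were in the authors' deposited gene table and all 4 were higher (median 1.08 on the log2 scale). For comparison, 2.81% of all listed mRNA genes had a row there, and 52.8% of all 684 rows were higher. The list was chosen with earlier results of these data known, so nothing is read from its share of rows or their direction. The median over rows of both directions was 0.47, which is not a like measure for 4 rows that are all higher. SLC5A3, the myo-inositol transporter gene, was at 1.11 (Q = 0.00243), and SLC6A6, the taurine transporter gene, at 1.04 (Q = 3.41e-05) in the authors' deposited gene table. HSPA4L, an HSP110 family chaperone gene, was at 0.92 (Q = 0.00168) and HSPA1B, an HSP70 gene, at 1.23 (Q = 1.29e-09) in that deposited table. HSPA1B has a near-identical copy in HSPA1A and SLC5A3 overlaps MRPS6, so how the counting divided their reads is uncertain. Higher rows of chaperone genes were not particular to this list. In the authors' deposited transcript table HSPH1 was at 2.34, DNAJA1 at 1.23 and HSP90AA1 at 1.17, while DNAJB9 was at -1.28. At the level of transcripts, 5 rows from 4 genes of the list were all higher, where 4.40% of listed mRNA symbols had a row. In the authors' deposited transcript table they include 1 version of AKR1B1, the aldose reductase gene, at 23.33, and 2 of NFATC2, a calcium-regulated family member of NFAT5, with 23.17 and 23.16. NM_138713.3 lay at 23.21 there. Genes outside the list had rises of the same size, such as CAMSAP2 at 23.17 and HIPK3 at 23.18, so nothing is read from the closeness.

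The DNA repair genes around FAN1 gave few rows. Of 33 Fanconi anaemia and crosslink repair genes 2 (6.06%) were in the authors' deposited gene table, both lower, where 2.81% of all listed mRNA genes had a row and 47.2% of all rows were lower. With 2 rows nothing is read from their direction. MUS81, a structure-specific endonuclease gene, was at -0.57 (Q = 0.0191) and BRCA1, a homologous recombination gene, at -0.62 (Q = 0.0395) in the authors' deposited gene table. WDR48, the cofactor of the deubiquitinase USP1, had 1 version at 9.12 in the authors' deposited transcript table. Of 8 mismatch repair genes none was in the gene table. PMS2, a mismatch repair gene, had 1 version at 8.93 (Q = 0.00545) in the authors' deposited transcript table. No gene of these 2 lists had versions in both directions.

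Among 15 genes of HP1 and integrase-binding-domain partners, HDGFL2 was the only one with a row. HDGFL2, the knockdown target, was at -1.37 (Q = 2.99e-13) in the authors' deposited gene table, which leaves 38.8% of the control level. In the authors' deposited transcript table its version NM_001001520.2 was lower too, with a log2 fold change at -1.34 (Q = 0.0203). CBX1, CBX3 and CBX5, the HP1 genes, CHAMP1, PSIP1 and the other 9 had no row in either table. Of all listed mRNA genes 2.81% had a gene row, and of listed mRNA symbols 4.40% had a transcript row. With shares that low, nothing is read from the missing rows.

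Of 8 plasma cell markers 3 had a row in the authors' deposited gene table and all 3 were lower. Of listed mRNA genes 2.81% had a row, and 47.2% of all rows were lower. With 3 rows nothing is read from their share or direction. IRF4, a plasma cell transcription factor gene, was at -0.63 (Q = 0.00323) in that deposited table. Its transcript versions went both ways, with XM_006715090.2 at 1.93 and NM_002460.3 at -1.04 in the authors' deposited transcript table, so IRF4 is itself among the 88 genes called in both directions. The 13 markers of T and NK, myeloid, erythroid and stromal cells had none. The tables give changes and no levels, so they do not show whether a marker is expressed.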

How the data were processed

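RNA was extracted with Trizol and sequenced after BGI library preparation, per the labels. RSEM, Bowtie2, BWA and build hg19 appear without roles in the submitters' processing notes. The test was not given in the sources used here, nor were tool versions, annotation or normalization. The values used are the log2 fold changes and the Q values, both deposited by the authors per transcript and per gene, and only rows under a Q value of 0.05 are in the tables. The deposited gene and transcript lists served for names. Depth is unknown. The planned tests on counts were not run, since the tables hold only the authors' comparison. Members and gene lists were chosen with earlier results of these data known.

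Rows were counted by symbol; of 3 symbols turned into dates, 2 were restored from their accessions. Accession versions were linked to GENCODE 29 models through its RefSeq table, from which exons, codons, sequences and 31-base words were computed in Python 3.11.15. Functions were tested on simulated data. Named genes are the members, up to 4 called members a list by Q value and 6 genes of like pattern. Not every gene named by this rule is reported here. Alternatives restricted Q value, size and accession kind.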

Additional observations from a re-analysis of the deposited data

How the results depend on the processing

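The 3 higher and 4 lower versions, and the opposed directions of all 3 genes, were the same at a Q value under 0.01 and with the symbols as deposited. With an absolute log2 fold change under 20, 1 higher and 2 lower versions and 1 opposed gene (POGZ) were left, and under 6 there were 0, 0 and 0. With curated accessions alone, an alternative chosen after seeing the data for the members, 2 higher and 1 lower versions and 1 opposed gene (NFAT5) were left. All genes with versions in both directions numbered 88, and 48 at a Q value under 0.01, 20 with curated accessions, 77 under 20 and 7 under 6, since fewer rows entered; with symbols as deposited, also chosen after seeing the data, there were 89. No paired analysis was possible because the deposited comparisons hold no value per library; leaving out replicates, other normalizations and count filters were not run for the same reason.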

Other observations

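A second deposited list names 439 transcripts without values. All 439 are lower in the transcript comparison, with log2 fold changes from -9.99 to -0.30, and they are the same set as all lower transcripts above -10, while the 71 lower transcripts at -10 or less are not on it. Among the members' versions only XM_017022013.1 of FAN1, at -9.23 in the authors' deposited transcript table, is on that list. The list therefore leaves out XM_005254232.4, NM_138714.3 and XM_005245001.2, the lower versions with the largest changes of the 3 genes.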
